A study of Mus musculus with 2 samples.

Results

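The platelet-derived growth factor (PDGF) genes described here are the 4 ligand genes Pdgfa, Pdgfb, Pdgfc and Pdgfd and the 2 receptor genes Pdgfra and Pdgfrb. They were taken by gene symbol, and all 6 were found among the 17128 gene symbols of the deposited table. RNA came from primary hepatic stellate cells, the vitamin A-storing pericytes of the liver sinusoid, of mice carrying floxed Adar1 alleles and Cre-ER, a recombinase that works only once tamoxifen or its active form is bound. In the treated group the cells received 100 nM 4-hydroxytamoxifen (4-OHT), meant to delete Adar1, and in the other group they received vehicle. Both groups shared the Adar1f/f/Cre-ER genotype and were activated in culture for 4 days in medium with serum. The labels do not name the promoter that drives Cre-ER, the ages of the mice or how many were pooled, and no library tests 4-OHT in cells without the floxed alleles, so the drug and the deletion cannot be told apart. With n = 1 library per group there is no check against replicates, and each difference given here is one between 2 libraries.

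PDGF ligands are secreted as dimers that pull together receptor tyrosine kinases on the cell surface. PDGF-A and PDGF-B are released by cleavage inside the cell, whereas PDGF-C and PDGF-D are secreted in a latent form and activated outside it. The alpha receptor binds the A, B and C chains and the beta receptor binds mainly the B and D chains. In liver, PDGF-B is known as a strong mitogen for stellate cells, and the beta receptor is known to increase as these cells become myofibroblasts.

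Both receptor genes were lower in the 4-OHT library and all 4 ligand genes were listed higher, by less than 2-fold, with Pdgfd turning to lower under 1 rescaling given below. Pdgfrb stood at 2.13 FPKM with 4-OHT and 6.24 FPKM with vehicle, and Pdgfra at 6.53 FPKM with 4-OHT and 10.3 FPKM with vehicle. FPKM is fragments per kilobase of transcript, scaled to library size, so levels of different genes can be compared within a library. Of the 6 genes, 1 (Pdgfrb) was lower by 2-fold or more, 0 were higher by 2-fold or more and 5 lay between on the log2(FPKM + 1) scale. A minimum of 1 FPKM in the higher library left 13558 genes, of which 3.48% were at least 2-fold lower and 5.78% at least 2-fold higher. The median log2 change of the 6 genes was 0.17, beside 0.03 over all these genes. All 6 passed the minimum of 1 FPKM in both libraries.

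The 5′ ends of a ligand gene and a receptor gene are shown because they stand at the opposite sides of the pattern: Pdgfa had the highest change of the 6, and Pdgfra was the lower receptor gene with an entry in the sequence table used. Each run covers 250 bases before to 50 bases after an annotated start, from RefSeq on GRCm38.p6, and 4 of the 6 genes were matched there (Pdgfa, Pdgfc, Pdgfd and Pdgfra). The Pdgfa run is chr5:138994895-138995194 on the minus strand, 1 of 2 starts given for the gene, and the Pdgfra run is chr5:75152001-75152300 on the plus strand. Capitals mark the letters of any motif searched for.
Pdgfa: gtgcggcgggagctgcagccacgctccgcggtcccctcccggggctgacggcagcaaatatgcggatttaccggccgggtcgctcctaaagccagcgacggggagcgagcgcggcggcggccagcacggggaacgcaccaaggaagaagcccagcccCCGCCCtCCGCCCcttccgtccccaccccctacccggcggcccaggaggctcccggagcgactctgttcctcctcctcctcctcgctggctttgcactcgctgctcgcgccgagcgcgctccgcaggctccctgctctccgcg
Pdgfra: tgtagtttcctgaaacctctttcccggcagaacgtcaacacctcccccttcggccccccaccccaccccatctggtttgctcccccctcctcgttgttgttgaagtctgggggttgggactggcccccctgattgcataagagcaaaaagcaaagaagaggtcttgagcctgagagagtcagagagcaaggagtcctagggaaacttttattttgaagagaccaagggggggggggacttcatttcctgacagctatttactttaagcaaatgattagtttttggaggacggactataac
Both strands were searched for 6 motifs, and no 2 marked matches overlapped. The core of the interferon-stimulated response element was written GAAANNGAA, where N is any base, and 8.56% of all 32851 such windows held it. The gamma-activated site, bound by STAT factors, was written TTCNNNGAA and stood in 8.30% of windows. The GC box, bound by Sp1, was written GGGCGG and stood in 35.7%. The AP-1 site was written TGANTCA and stood in 7.81%, the TATA box was searched as TATAAA and stood in 13.6%, and the CArG box of serum response factor stood in 1.63%. The Pdgfa run held 2 GC boxes side by side, which begin at positions -93 and -86 counted from the start. The Pdgfra run held no match to any of the 6 motifs. The other Pdgfa start had 1 GC box, the Pdgfd window a TATA box at position -160 and the Pdgfc window a CArG box at position -17. None of the 5 windows of the family held the interferon motif or the gamma-activated site. The windows also differed in base composition, with 73.3% G or C and 37 CpG dinucleotides in the Pdgfa run shown and 51.0% and 5 in the Pdgfra run, beside a median of 52.7% G or C over all windows.

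The labelled cell type was checked against marker genes before the family was read, since bulk RNA mixes all cells in the dish. Stellate genes were present at levels that varied widely. Acta2, an actin of myofibroblasts, stood at 8.87 FPKM with 4-OHT and 86.8 FPKM with vehicle. Ecm1, another listed stellate marker, stood at 41.1 FPKM with 4-OHT and 42.8 FPKM with vehicle. Desmin (Des), an intermediate filament of stellate cells, was at 7.15 FPKM with 4-OHT and 12.6 FPKM with vehicle, Lrat, the retinol-esterifying enzyme of vitamin A storage, at 0.209 FPKM with 4-OHT and 1.36 FPKM with vehicle, and Gfap, Ngfr and Colec11 were not among the genes analysed here. Macrophage genes were higher in sum: all 12 listed markers were measured, and they summed to 3713 FPKM with 4-OHT and 5690 FPKM with vehicle. Their levels varied too, with Timd4 at 4.14 FPKM with 4-OHT and 3.18 FPKM with vehicle. The macrophage markers differed in both directions, with 8 of the 12 lower in the 4-OHT library. Lyz2, the lysozyme of macrophages, was at 1353 FPKM with 4-OHT and 3050.5 FPKM with vehicle, and Vsig4, a complement receptor of Kupffer cells, at 82.5 FPKM with 4-OHT and 191 FPKM with vehicle. Cd68, a lysosomal protein of macrophages, was at 504 FPKM with 4-OHT and 392 FPKM with vehicle, and Clec4f, a lectin of Kupffer cells, at 202 FPKM with 4-OHT and 144 FPKM with vehicle. All 11 endothelial markers were also measured, with sums of 1969 FPKM with 4-OHT and 1913 FPKM with vehicle. Cdh5, the cadherin of endothelial junctions, stood at 319.7 FPKM with 4-OHT and 300.2 FPKM with vehicle. Vwf, on the same list, stood at 4.97 FPKM with 4-OHT and 4.79 FPKM with vehicle. The 15 measured stellate markers summed to 783 FPKM with 4-OHT and 897 FPKM with vehicle, most of it Vim, which many cell types express, at 666 FPKM with 4-OHT and 630 FPKM with vehicle. The libraries therefore held RNA of macrophage and endothelial genes beside that of stellate genes, and the level of a PDGF gene cannot be assigned to one of these cell types. In bulk RNA, fewer cells of a type and less RNA per cell cannot be told apart. Adar1, the floxed gene, was not analysed here, so the labels were not checked against it.

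**Figure D1:**
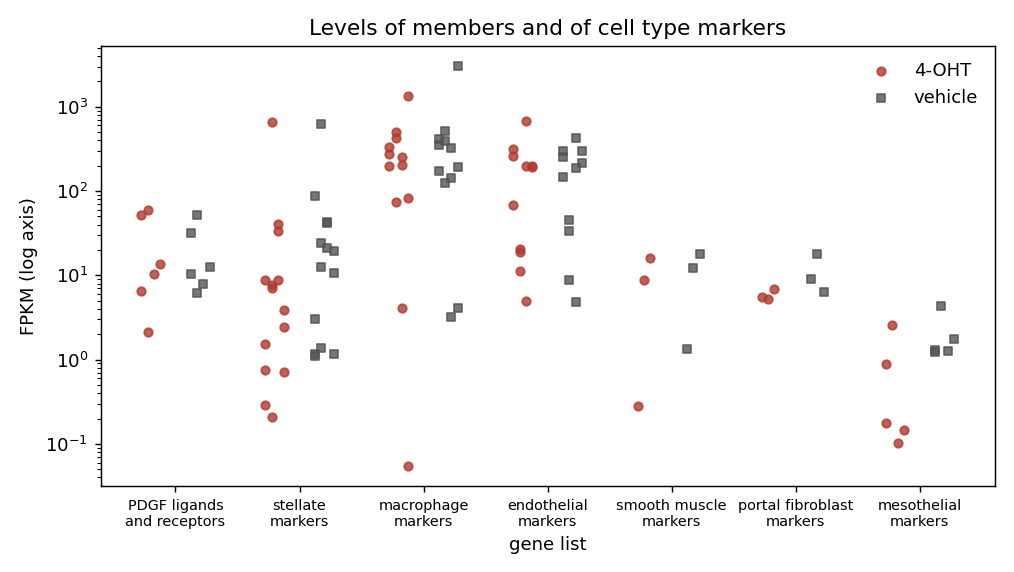
FPKM on a log axis of the 6 PDGF genes and of marker genes that reached 1 FPKM in either library, with 1 point per gene, 4-OHT as circles and vehicle as squares. The PDGF genes lie between 2.13 and 60.1 FPKM, within the span of the stellate markers and below most macrophage and endothelial markers.

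The receptors were the members that differed most downwards. Pdgfrb encodes the beta receptor (ENSMUSG00000024620.11, chromosome 18, 61045150 to 61085061, plus strand, GRCm38). Its 2.13 FPKM with 4-OHT, against 6.24 FPKM with vehicle, gave a log2 change of -1.21 with 1 FPKM added, and a plain ratio of 0.341. Fragments behind a value were estimated from the depth of each library and the length of the longest coding transcript. On that estimate the 4-OHT library held 339 Pdgfrb fragments and the vehicle library 1255, and the ratio had an exact 95% interval of 0.302 to 0.385, which covers counting error only. The gene has 2 annotated transcripts, of 5423 and 5407 bases, so the choice of transcript hardly moves this estimate. Among the 13558 genes, 308 had a lower change than Pdgfrb. Its level stood at percentile 17.7 of these genes with 4-OHT and at percentile 37.3 with vehicle. The authors' deposited table gave Pdgfrb a p-value of 0.00055 and a q-value of 0.0358, and it was the 1 member under a q-value of 0.05, a limit that 2.47% of all 17145 rows passed. With 5 FPKM added in place of 1, the log2 change of Pdgfrb was -0.66, within 2-fold.

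Pdgfra encodes the alpha receptor, a common marker of fibroblasts and their precursors (ENSMUSG00000029231.15, chromosome 5, 75152292 to 75198215, plus strand). It stood at 6.53 FPKM with 4-OHT and 10.3 FPKM with vehicle, a log2 change of -0.59, and the plain ratio was 0.634 (counting interval 0.593 to 0.678). The direction was that of Pdgfrb and the size was smaller in these 2 libraries. The intervals of the 2 ratios did not overlap, but they cover counting error only and not the spread between cultures. Of the 13558 genes, 1385 had a lower change. Pdgfra has 7 coding transcripts of 442 to 6834 bases, and with the shortest of them the interval would widen to 0.445 to 0.882. Its q-value in the authors' deposited table was 0.979. Summed over both receptors, FPKM came to 8.65 with 4-OHT and 16.5 with vehicle. Pdgfrb made up 24.6% of that sum with 4-OHT and 37.7% with vehicle, so Pdgfra was the higher of the receptor genes in each library, by 3.07 times with 4-OHT and 1.65 times with vehicle.

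**Figure D2:**
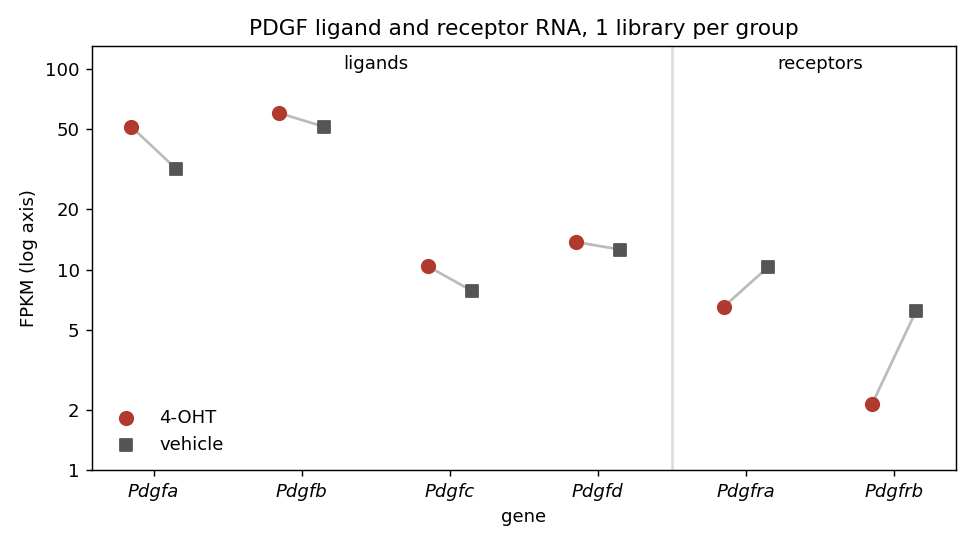
FPKM on a log axis of each PDGF ligand and receptor gene, with 1 library per group, 4-OHT as circles and vehicle as squares, joined by a line within each gene. Both receptor genes are lower with 4-OHT, while the 4 ligand genes are listed higher, with the Pdgfd points almost level (13.7 FPKM with 4-OHT and 12.6 FPKM with vehicle) and turning to lower under 1 rescaling.

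Among the ligands, Pdgfa differed most. It encodes the A chain, a ligand of the alpha receptor (ENSMUSG00000025856.15, chromosome 5, 138976014 to 138997370, minus strand), and stood at 51.4 FPKM with 4-OHT and 31.8 FPKM with vehicle. The log2 change was 0.67 and the ratio 1.61, with a counting interval of 1.53 to 1.71 from an estimated 2947 fragments with 4-OHT and 2300 with vehicle. That change stood at percentile 90.3 of all genes, short of 2-fold, and 1316 genes had a higher one. In the authors' deposited table the q-value was 0.999637 for each of the 4 ligand genes. The exons of Pdgfa overlap those of 6330403L08Rik on the other strand, listed at 1.57 FPKM with 4-OHT and 1.95 FPKM with vehicle, and whether the libraries kept strand is not given in the sources used here.

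Pdgfb encodes the B chain, which binds both receptors (ENSMUSG00000000489.7, chromosome 15, 79995874 to 80014977, minus strand). It was the most abundant member in each library, at 60.1 FPKM with 4-OHT and 51.4 FPKM with vehicle, which is percentile 89.3 of the genes with 4-OHT and percentile 89.2 with vehicle. The log2 change was 0.22 and the ratio 1.17, with a counting interval of 1.13 to 1.22. That interval does not include the spread between cultures, and 4320 of the 13558 genes had a higher change. Endothelial cells, macrophages and platelets are known sources of PDGF-B. The platelet gene Pf4, which macrophages can also express, stood at 15.5 FPKM with 4-OHT and 35.9 FPKM with vehicle. Itga2b, the platelet integrin, stood at 1.22 FPKM with 4-OHT and 1.01 FPKM with vehicle, and the other 4 platelet markers were not among the genes analysed here. The part of these cells in the Pdgfb level was not tested.

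Pdgfc and Pdgfd encode the ligands that carry a CUB domain and need cleavage outside the cell. Pdgfc (ENSMUSG00000028019.9, chromosome 3, 81036416 to 81214040, plus strand) stood at 10.4 FPKM with 4-OHT and 7.82 FPKM with vehicle. Its log2 change was 0.37 and its ratio 1.33, with a counting interval of 1.22 to 1.45. Pdgfd (ENSMUSG00000032006.15, chromosome 9, 6168584 to 6378850, plus strand) stood at 13.7 FPKM with 4-OHT and 12.6 FPKM with vehicle. Its log2 change was 0.12 and its ratio 1.09, with a counting interval of 1.01 to 1.18 that reached below 1 (0.982 to 1.21) when its shortest coding transcript was used. With the 4-OHT values rescaled to equal upper quartiles, which shifts the median of all genes by -0.12, Pdgfd had a log2 change of -0.01. No direction can thus be given for Pdgfd.

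Within the vehicle library the members ran from Pdgfb through Pdgfa, Pdgfd, Pdgfra and Pdgfc to Pdgfrb, and with 4-OHT Pdgfc stood above Pdgfra. No spread over samples is known for neighbours in that order. The 4 ligands summed to 136 FPKM with 4-OHT and 104 FPKM with vehicle, and Pdgfa and Pdgfb together made up 82.2% of the sum with 4-OHT and 80.3% with vehicle. Ligand FPKM was 15.7 times receptor FPKM with 4-OHT and 6.27 times with vehicle. The pair of Pdgfb over Pdgfrb gave 28.3 with 4-OHT and 8.24 with vehicle, and that of Pdgfa over Pdgfra 7.88 with 4-OHT and 3.09 with vehicle. These are ratios of RNA levels over the whole dish and not of protein.

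**Figure D3:**
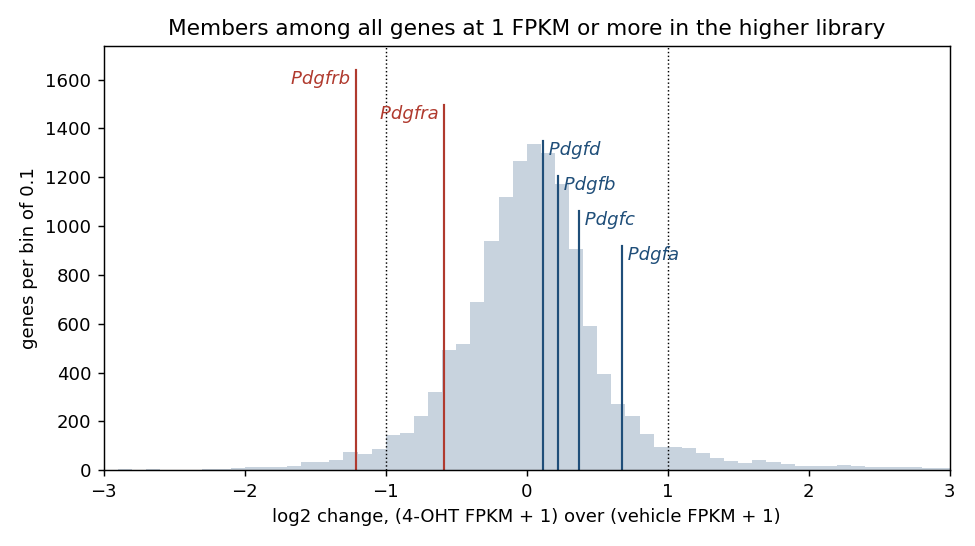
Histogram of the log2 change, (4-OHT FPKM + 1) over (vehicle FPKM + 1), of the 13558 genes that reached 1 FPKM in either library, with a vertical line for each member and dotted lines at 2-fold. Pdgfrb at -1.21 lies past the lower line, and Pdgfra at -0.59 and Pdgfa at 0.67 lie toward the edges. Pdgfd and Pdgfb lie near the centre, and Pdgfc at 0.37 lies above the upper quartile of 0.30. The axis leaves out 38 genes below it and 144 above it.

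Markers of several cell types were lower in the 4-OHT library beside the receptors. Of the 14 stellate markers with at least 1 FPKM, 6 were lower by 2-fold or more and 0 higher, and their median log2 change was -0.86. Beside this and the counts below, 3.48% of all 13558 genes were at least 2-fold lower and 5.78% at least 2-fold higher. Acta2, the smooth muscle actin of myofibroblasts, had a ratio of 0.102, Rgs5, a pericyte regulator of G-protein signalling, 0.247, Col1a1, a chain of collagen I, 0.318 and Des 0.569, beside 0.341 for Pdgfrb and 0.634 for Pdgfra. The stellate markers did not all go this way. Of the 14, 2 had a change above 0, Lhx2 with a ratio of 1.37 and Vim with 1.06. Ecm1 had a ratio of 0.959 and Nes 0.790. Mesothelial markers at the minimum were lower too, with a median of -0.96 over 5 genes and, over the 7 measured, sums of 4.42 FPKM with 4-OHT and 11.0 FPKM with vehicle. All were low, with the highest value that of Krt19 with vehicle, 4.39 FPKM. Below the minimum, Msln went the other way, at 0.309 FPKM with 4-OHT and 0.147 FPKM with vehicle. Gpm6a was at 0.237 FPKM with 4-OHT and 0.845 FPKM with vehicle. Of 3 portal fibroblast markers 1 was at least 2-fold lower, Fbln2, a matrix glycoprotein, at 5.23 FPKM with 4-OHT and 17.8 FPKM with vehicle. Cd34 on that list had a ratio of 0.614 and Thy1 went the other way with 1.10. Entpd2, below the minimum, was at 0.386 FPKM with 4-OHT and 0.171 FPKM with vehicle. Smooth muscle markers summed to 25.7 FPKM with 4-OHT and 33.2 FPKM with vehicle over 6 genes, with a median of -0.42 over the 3 genes at the minimum. Actg2, below the minimum, was listed at 0 FPKM with 4-OHT and 0.493 FPKM with vehicle. Of 7 hepatocyte markers only Alb was measured, at 0.334 FPKM with 4-OHT and 1.41 FPKM with vehicle. Of the 12 macrophage markers 3 were at least 2-fold lower, Cd163 (-2.27), Vsig4 (-1.20) and Lyz2 (-1.17), and the median was -0.31. Of the 11 endothelial markers 2 were at least 2-fold lower, Clec4g (-1.22) and Stab2 (-1.09), and the median was 0.04. On that list 6 genes were above 0, Lyve1 (0.11) among them, and 5 below. None of either list was at least 2-fold higher. The part of these cell types in the lower receptor values was not tested.

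The rest of the pathway was examined through 8 lists with 98 genes at the minimum, of which 7 (7.14%) were at least 2-fold higher and 3 (3.06%) at least 2-fold lower, near the shares over all genes.

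Proteins that release or bind PDGF were at 1162 FPKM in sum with 4-OHT and 1297 FPKM with vehicle. Of 7 such genes 1 was at least 2-fold lower and the median was -0.13. The lower gene was A2m, the plasma protease inhibitor alpha-2-macroglobulin, which binds PDGF, at 2.75 FPKM with 4-OHT and 11.0 FPKM with vehicle (log2 change -1.68). Plat, the tissue plasminogen activator that cleaves PDGF-C, was at 1.73 FPKM with 4-OHT and 2.96 FPKM with vehicle (-0.54), and Sparc, a matrix protein that binds PDGF-B, at 450.1 FPKM with 4-OHT and 620.4 FPKM with vehicle (-0.46). The proprotein convertase gene Pcsk7 was at 19.4 FPKM with 4-OHT and 13.4 FPKM with vehicle (0.50), and the related convertase gene Furin was at -0.13. St14, a membrane protease, was below the minimum at 0.434 FPKM with 4-OHT and 0.600 FPKM with vehicle.

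Partners of the receptors at the membrane had a median of -0.55 over 7 genes, and with 1 FPKM added none was past 2-fold. The count of lower genes was 1 with 0.1 FPKM added or with rescaling to a median change of 0, and 2 with rescaling to equal upper quartiles. Lrp1, an endocytic receptor that associates with the beta receptor, was at 72.2 FPKM with 4-OHT and 140 FPKM with vehicle (log2 change -0.95). Cav1, the caveolae protein caveolin, was at 8.50 FPKM with 4-OHT and 17.7 FPKM with vehicle (-0.97, a plain ratio of 0.481), and Nrp1, the co-receptor neuropilin, at 50.8 FPKM with 4-OHT and 81.4 FPKM with vehicle (-0.67). Itgb3, an integrin subunit that cooperates with the beta receptor, went the other way at 51.5 FPKM with 4-OHT and 30.8 FPKM with vehicle (0.72), while Itgav, the alpha subunit it pairs with, was at -0.55. Endothelial cells and macrophages also express several of these genes.

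**Figure D4:**
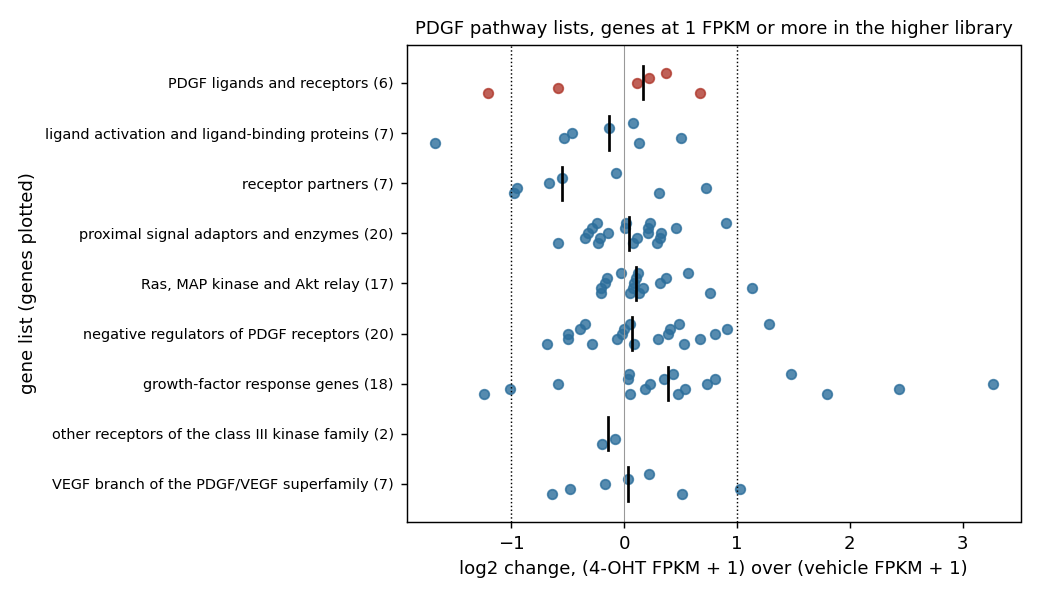
Log2 change, (4-OHT FPKM + 1) over (vehicle FPKM + 1), of the 6 PDGF genes and of each gene of 8 pathway lists that reached 1 FPKM in either library. Each point is a gene, short bars are list medians and dotted lines mark 2-fold. The 20 proximal adaptors and enzymes all lie within 2-fold, whereas growth-factor response genes reach 3.27 at the top and -1.24 at the bottom.

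Signal transducers of the receptors showed little difference as groups. None of the 20 adaptors and enzymes that dock on activated receptors was past 2-fold, and their median was 0.05. The widest differences were those of Src, a kinase that binds PDGF receptors, at 37.5 FPKM with 4-OHT and 19.6 FPKM with vehicle (log2 change 0.90), and Plcg1, the phospholipase C gamma that docks on them, at 20.1 FPKM with 4-OHT and 30.7 FPKM with vehicle (-0.58). Crkl, an adaptor, was at 0.46 and Gab1, a docking protein, at -0.35. The 17 genes of the relay through Ras, the MAP kinases and Akt had a median of 0.11. Among them, Map2k1, which encodes MEK1, was at 77.0 FPKM with 4-OHT and 45.1 FPKM with vehicle (0.76), and Srf, serum response factor, at 20.97 FPKM with 4-OHT and 13.9 FPKM with vehicle (0.56).

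Of 20 negative regulators 1 was at least 2-fold higher and none at least 2-fold lower, with a median of 0.07. Socs1, a feedback inhibitor of cytokine receptors that interferon also induces, was at 2.36 FPKM with 4-OHT and 0.378 FPKM with vehicle (log2 change 1.29). With 5 FPKM added, or with a minimum of 5 FPKM, 0 of these genes were at least 2-fold higher. The tyrosine phosphatase genes Ptpn2, at 33.4 FPKM with 4-OHT and 17.2 FPKM with vehicle (0.91), and Ptpn12, at 76.4 FPKM with 4-OHT and 43.2 FPKM with vehicle (0.81), were within 2-fold. Spry1, an inhibitor of Ras signalling, was at 3.13 FPKM with 4-OHT and 5.64 FPKM with vehicle (-0.69). Cbl, the ubiquitin ligase that marks PDGF receptors for degradation, was at 32.7 FPKM with 4-OHT and 31.5 FPKM with vehicle (0.05).

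Growth-factor response genes differed in both directions, with 15 of 18 above 0 and 3 below. Of 18 genes 4 were at least 2-fold higher, 2 were at least 2-fold lower and the median was 0.39. The higher ones were Ccl7, at 600.4 FPKM with 4-OHT and 61.5 FPKM with vehicle (log2 change 3.27), Cxcl1, at 103 FPKM with 4-OHT and 18.2 FPKM with vehicle (2.44), Ccl2, at 1474 FPKM with 4-OHT and 424 FPKM with vehicle (1.80), and Egr1, at 11.4 FPKM with 4-OHT and 3.43 FPKM with vehicle (1.48). The first 3 encode chemokines, which inflammatory signals also induce, and Egr1 is an immediate early transcription factor. The lower ones were the ETS factor genes Etv4, at 0.845 FPKM with 4-OHT and 3.36 FPKM with vehicle (-1.24), and Etv5, at 5.004 FPKM with 4-OHT and 11.1 FPKM with vehicle (-1.01), both known to follow ERK activity. With 5 FPKM added, 3 genes were at least 2-fold higher and 0 at least 2-fold lower, and a minimum of 5 FPKM left 1 lower. Ccnd1, cyclin D1, was at 70.7 FPKM with 4-OHT and 106 FPKM with vehicle (-0.58).

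Kit and Csf1r, the other measured receptor tyrosine kinases of class III, the family of the PDGF receptors, stood within 2-fold. Kit, the stem cell factor receptor, was at 22.3 FPKM with 4-OHT and 23.7 FPKM with vehicle (log2 change -0.08), and Csf1r, the macrophage growth factor receptor, at 239 FPKM with 4-OHT and 275 FPKM with vehicle (-0.20). Csf1r lies 15.5 kb downstream of Pdgfrb on the same strand of chromosome 18. On chromosome 5, Kit follows Pdgfra after 377 kb and Kdr, a VEGF receptor, follows Kit after 276 kb on the other strand. Kdr was at 35.2 FPKM with 4-OHT and 55.4 FPKM with vehicle (-0.64), close to the -0.59 of Pdgfra. With 1 library per group the differences between these genes were not tested.

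In the VEGF branch of the superfamily, 1 of 7 genes was past 2-fold and the median was 0.04. It was Flt1, a VEGF receptor, at 8.37 FPKM with 4-OHT and 3.59 FPKM with vehicle (log2 change 1.03). With 5 FPKM added, or under either rescaling, 0 genes of the branch were at least 2-fold higher. The ligand gene Vegfa was at 17.2 FPKM with 4-OHT and 24.4 FPKM with vehicle (-0.48) and Pgf, placental growth factor, at 37.7 FPKM with 4-OHT and 26.1 FPKM with vehicle (0.51). In this branch both ligands and receptors stood on both sides of 0, and Vegfd was below the minimum.

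Genes with values most like each member were found by Euclidean distance between log2(FPKM + 1) pairs over the 2 libraries, among protein-coding genes at the minimum. Nearest to Pdgfrb were Nsg1 (distance 0.035), Gmpr (0.040) and Avpi1 (0.042), and 9 genes lay within 0.1 of it. Nearest to Pdgfra were Fbxw9, Chst12 and Tmem263, with 24 genes within 0.1. Nearest to Pdgfa were Rela, Tnfrsf26 and Itgb3, with 12 within 0.1, and nearest to Pdgfb were Dock4, Ranbp2 and Nbr1, with 32. For Pdgfc they were Arhgef15, Dennd1c and Rai1, with 48, and for Pdgfd they were Selp, Erf and Pop7, with 93. A match over 2 values describes level and difference alone.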

How the data were processed

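Per the file headers, the deposited table held an FPKM value for each gene in the 4-OHT and the vehicle library. Per the submitters' processing notes, STAR, Cufflinks and GRCm38 were used, with no version or role stated, and how libraries were scaled to each other is not given in the sources used here. For each row, the log2 change deposited by the authors equals the log2 of 4-OHT FPKM plus 1 over vehicle FPKM plus 1 in all 17145 rows, and it understates differences of low genes. The authors' deposited p-values and q-values compare 2 libraries, and no source used here says how their test estimated spread.

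All 17145 gene identifiers matched GENCODE M21 (GRCm38), which gave positions and lengths, and 20 symbols were restored from it. Where a symbol stood on several rows, the row of highest total FPKM was kept. FPKM summed to 553634 with 4-OHT and 493531 with vehicle. Low values of genes with 1 transcript over 600 bases fell on whole fragments (within 0.1) in 98.8% of 682 values with 4-OHT and 97.4% of 547 values with vehicle. With settings fixed beforehand, 20% would do so by chance. The FPKM per fragment and the shortening of transcripts were chosen for the largest excess over that share. The same values were used for this choice, so the shares are fitted and not an independent check. From this fit, 1 FPKM over 1 kb of effective length stood for 30.3 fragments with 4-OHT and 38.3 fragments with vehicle, after shortening transcripts by 168 bases with 4-OHT and 174 bases with vehicle. Members have several transcripts, so their fragments are estimates. Ratios carry exact 95% Clopper-Pearson intervals, for counting error only. The steps were tested on simulated data. No test across replicates was possible.

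The members and lists were chosen with earlier results of these data known. All 6 members are named, with the 4 genes of widest change per list, all genes of short lists, those past 2-fold where 5 or fewer, and the 3 nearest genes of each member. Some genes this rule takes are not reported here. Marker genes, Furin, Itgav, Cbl, Ccnd1, Etv4, Etv5 and genes below the minimum were picked after their values were seen. Alternatives were pseudocounts of 0.1 and 5 FPKM, rescaling by the median or upper quartile, no minimum or 5 FPKM, a 1.5-fold threshold and other transcript lengths. Python 3.11.15, pandas 2.3.3, NumPy 2.4.6 and SciPy 1.17.1 were used.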

Additional observations from a re-analysis of the deposited data

How the results depend on the processing

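With 1 library per group, only values could be compared. Pdgfrb was at least 2-fold lower under 5 of the 6 alternatives with that threshold, and with a pseudocount of 5 FPKM no member was past 2-fold (0 lower). A pseudocount of 5 FPKM also gave log2 changes of -0.66 for Pdgfrb and -0.41 for Pdgfra, and counts of 456 higher and 163 lower genes in the table and 4 higher and 1 lower among list genes. A pseudocount of 0.1 FPKM gave -1.51 for Pdgfrb and 859 lower genes in the table. Equal upper quartiles gave 0.54 for Pdgfa, 0.088 for Pdgfb, -0.011 for Pdgfd and -0.70 for Pdgfra, and 5 lower list genes. A 1.5-fold threshold counted 1 member higher (Pdgfa) and 2 lower (both receptors, with Pdgfra just past it), 1581 genes higher and 1386 lower in the table, and 15 higher and 8 lower list genes. By list, a pseudocount of 5 FPKM left 0 higher VEGF-branch genes, 0 higher negative regulators and 0 lower growth-factor response genes. With the shortest coding transcript, the lower bound for the Pdgfd ratio was 0.982. The cause was not tested. Without replicates, the FPKM depth sets counting error only. No paired analysis was possible because each group had 1 library.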
